A study of Mus musculus with 12 samples.

Results

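The renin-angiotensin system genes of the mouse kidney were examined, as a set of 8 genes named by their place in the pathway and found by symbol among the 55401 genes of the deposited tables. They are *Agt*, *Ren1*, *Atp6ap2*, *Ace*, *Agtr1a*, *Agtr1b*, *Mme* and *Enpep*. Whole kidneys came from male C57BL6 mice aged 8 weeks, and 1 library was made per mouse. A group of 6 mice received vehicle (15% 2-hydroxypropyl-beta-cyclodextrin) and a group of 6 mice received SK-124, an inhibitor of the salt-inducible kinases SIK2 and SIK3, at 40 mg/kg in a single intraperitoneal injection. The labels name no engineered allele, and the time between injection and collection is not stated for these libraries in the sources used here. The comparison asked how acute SIK2/SIK3 inhibition changed kidney mRNA.

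The renin-angiotensin system is a cascade of peptide cutting. Renin, released by juxtaglomerular cells of the afferent arteriole, cuts angiotensinogen to angiotensin I, and angiotensin-converting enzyme trims this to angiotensin II, which acts mainly through type 1 receptors to raise blood pressure and sodium retention. Aminopeptidase A and neprilysin break the peptides down or divert them, and in the kidney the proximal tubule carries angiotensinogen, converting enzyme, receptors and degrading peptidases.

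Expected counts, the reads that RSEM assigns to a gene, came to 19350134 to 19771802 in each mouse given vehicle and 19244227 to 19530313 in each mouse given SK-124. The 10 genes with the most counts took 39.9% to 43.2% of them with vehicle, 44.4% to 46.8% in SK-124-treated mice 1 to 3 and 38.6% to 40.2% in SK-124-treated mice 4 to 6. Levels within a gene are given as CPM, counts relative to the library total scaled with TMM, a scaling meant to offset such shares, and levels between genes as TPM, in which transcript length is taken into account. Under TMM the median log2 fold change over all 14159 genes tested was near 0 (-0.01), whereas library totals moved it to -0.12, a shift of -0.11 that is as large as several of the changes below. The 12 markers of the proximal tubule were all present, as in the labelled tissue, with summed levels of 5472 to 6435 TPM with vehicle and 5508 to 6677 TPM with SK-124. Of these 12, *Slc27a2* and *Pck1* were called higher with SK-124 and 0 lower, against 10.8% and 13.5% of all genes tested. Without *Pck1* the sums were 5272 to 6112 TPM and 4946 to 5763 TPM, an alternative chosen after seeing the data. Under TMM the median log2 fold change of the 12 markers was 0.00. In limma on log2(TPM + 0.1) the median over all genes was -0.14, so sums in TPM, here and below, carry the shift between scalings. In whole tissue, fewer cells of a type and less RNA per cell cannot be told apart.

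In vehicle-treated kidney *Ace* stood highest and *Agtr1b* was at the limit of detection, with the other members between. By median TPM the order was *Ace* (53.2), *Agt* (34.0), *Ren1* (21.4), *Mme* (21.1), *Enpep* (20.4), *Atp6ap2* (17.8), *Agtr1a* (16.4) and *Agtr1b* (0.010). Of the 7 neighbouring pairs in this order, only *Ace* against *Agt* and *Agtr1a* against *Agtr1b* had ranges over the 6 mice that did not overlap. *Enpep* lay above *Atp6ap2*, and *Atp6ap2* above *Agtr1a*, in 6 of 6 mice, although their ranges overlapped. For each of these 4 pairs the two-sided exact sign-flip permutation p was 0.03125, the smallest that 6 mice allow, and 0.0547 after adjustment over the 7 pairs. The order was taken from the same 6 mice, so these p-values do not test an order set beforehand. *Ren1* and *Mme* could not be put in order (exact permutation p = 0.875).

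With SK-124 the order by median TPM was *Ace* (47.4), *Agt* (35.0), *Ren1* (25.9), *Mme* (19.8), *Atp6ap2* (18.8), *Enpep* (18.5), *Agtr1a* (13.4) and *Agtr1b* (0). *Atp6ap2* and *Enpep* thus changed places, but they were neighbours whose ranges overlapped in either group. The ranges that did not overlap were those of *Enpep* against *Agtr1a* and *Agtr1a* against *Agtr1b*. *Ren1* had the widest spread among the members apart from *Agtr1b*, with a coefficient of variation in TPM of 39.2% with vehicle and 30.7% with SK-124. *Ace* was the steadiest with vehicle, at 7.38%, and *Mme* with SK-124, at 7.23%.

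**Figure D1:**
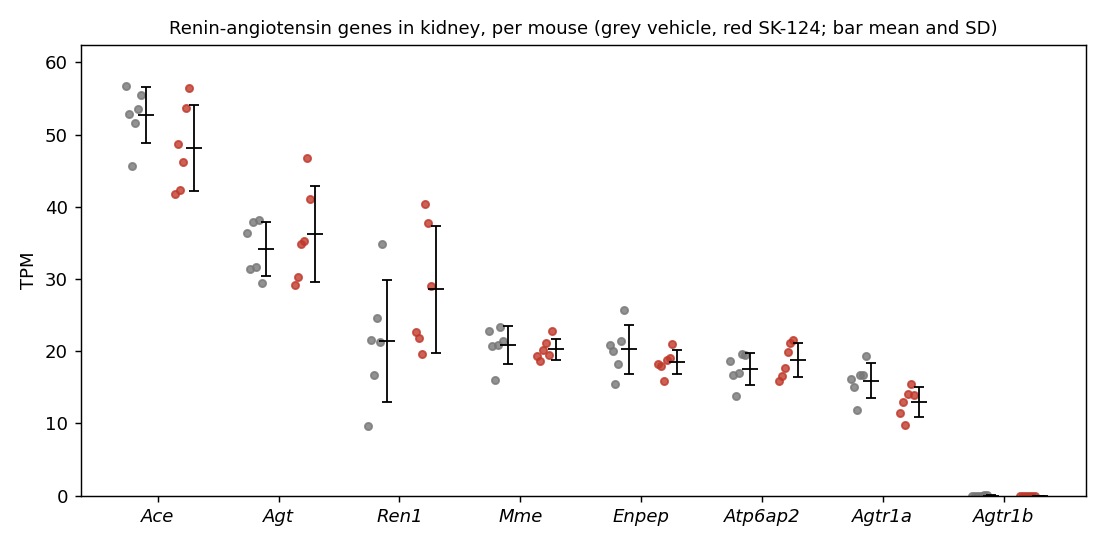
TPM of the 8 members in each mouse (y axis, TPM; x axis, genes in order of the vehicle median), with vehicle-treated mice in grey, SK-124-treated mice in red, and the mean and SD of 6 mice beside each group. *Ace* lies between 45.7 and 56.8 TPM with vehicle, above every other member, and *Agtr1b* does not exceed 0.070 TPM in any mouse.

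Of the 8 members, 7 passed the filter on low counts and 1, *Atp6ap2*, was called different between the treatments at an adjusted p (FDR) under 0.05 with edgeR's quasi-likelihood test. Over all 14159 genes tested the share called was 24.4% (10.8% higher and 13.5% lower with SK-124). The median log2 fold change of the 7 members was 0.12. *Atp6ap2* was also the only tested member whose CPM did not overlap between the groups, which held for 13.0% of all genes tested (6.32% with every SK-124-treated mouse higher and 6.65% with every one lower). The count of called members was 0 with library totals, where 3835 of all 14159 genes were called. It was also 0 with limma on log2(TPM + 0.1) or log2(TPM + 1), where 2616 and 2630 were called. In these settings 1 member, *Agtr1a*, had an unadjusted p under 0.05, and 3 members (*Atp6ap2*, *Agt* and *Ren1*) had one with TMM. The share of all genes with an unadjusted p under 0.05 was not read, so these counts only describe the members. SK-124-treated mice 1 to 3 alone gave 1 call, *Mme*, where 2298 of all 14512 genes tested were called. Mice 4 to 6 alone gave 1 call, *Atp6ap2*, where 2446 of all 14621 genes tested were called. Each of these fits set 3 mice against 6, so a call can also be lost through fewer mice.

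The genome windows before the start sites of *Ren1*, *Agt* and *Atp6ap2* are shown because these were the members with an unadjusted p under 0.05. Sequences and start sites are from RefSeq (GRCm38.p6), printed 5′ to 3′ on the gene's strand for the 250 bases before the start site, with capitals marking matches. The letters searched, on both strands, were TATAAA (a core promoter box), TGACG (the half-site of the cAMP response element), AGAACA (a half-site of the glucocorticoid receptor) and the full cAMP element TGACGTCA, which contains its half-site. The *Ren1* window is chr1:133350424-133350673, plus strand, the *Agt* window chr8:124569707-124569956, minus strand, and the *Atp6ap2* window chrX:12587509-12587758, plus strand. Gene spans given further below are from GENCODE M21, whose starts for *Ren1* (133350510) and *Atp6ap2* (12587801) differ from the RefSeq starts. Part of the *Ren1* window thus lies inside the GENCODE gene, and distances are counted from the RefSeq starts.
Ren1: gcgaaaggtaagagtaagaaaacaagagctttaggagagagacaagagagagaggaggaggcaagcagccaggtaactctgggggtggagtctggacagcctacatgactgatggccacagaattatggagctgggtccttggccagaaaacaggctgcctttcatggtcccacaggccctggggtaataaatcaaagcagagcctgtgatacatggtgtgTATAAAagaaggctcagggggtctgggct
Agt: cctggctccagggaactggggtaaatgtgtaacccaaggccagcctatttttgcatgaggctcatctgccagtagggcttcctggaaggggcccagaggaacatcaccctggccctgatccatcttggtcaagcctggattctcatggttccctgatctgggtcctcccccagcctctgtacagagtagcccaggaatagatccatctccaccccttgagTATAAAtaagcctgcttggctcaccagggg
Atp6ap2: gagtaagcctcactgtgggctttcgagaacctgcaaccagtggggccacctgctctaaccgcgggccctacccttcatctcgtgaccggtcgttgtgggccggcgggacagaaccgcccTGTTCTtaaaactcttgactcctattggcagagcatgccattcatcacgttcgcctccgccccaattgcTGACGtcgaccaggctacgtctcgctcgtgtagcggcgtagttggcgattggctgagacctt

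*Ren1* and *Agt* had TATAAA beginning 29 and 30 bases before the start site, and none of the other letters searched. *Atp6ap2* had no TATAAA but held TGACG 62 bases before it and TGTTCT, the glucocorticoid half-site read on the other strand, 131 bases before it. In 32851 RefSeq promoters, searched on both strands over 300 bases (250 before and 50 after the start), 13.6% held TATAAA, 20.8% the cAMP half-site, 19.0% the glucocorticoid half-site and 1.79% the full element TGACGTCA, which none of these 3 windows held. These letters describe the windows and are not evidence of binding.

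*Agt* encodes angiotensinogen, the substrate of renin. The gene (ENSMUSG00000031980.10) lies on chromosome 8 from 124556534 to 124569706, minus strand, in GENCODE M21 (GRCm38), where its identifier has an earlier version. Its CPM was 50.1, 63.4 and 75.3 (lowest, median and highest) with vehicle and 64.8, 73.0 and 84.6 with SK-124. All 6 SK-124-treated mice lay above the vehicle median and 3 of them above every vehicle-treated mouse, so the groups overlapped. The means were 62.8 ± 8.57 and 73.1 ± 7.19 CPM (SD, n = 6 each). On the log2 scale the difference was 0.22 (standard error 0.09, 95% interval 0.03 to 0.41, FDR = 0.0750, edgeR's quasi-likelihood test). An exact permutation test of log2(CPM + 0.5), two-sided, gave p = 0.0476. The difference was smaller in TPM, at 34.1 ± 3.78 against 36.2 ± 6.68 (SD, n = 6 each), and with library totals the log2 fold change was 0.11 (FDR = 0.417, edgeR). Without vehicle-treated mouse 3, which had the highest vehicle value, it was 0.28 (FDR = 0.0149, edgeR). *Agt* did not pass the threshold with all mice.

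*Ren1* encodes renin, the enzyme that starts the cascade and is rate-limiting for it. The gene (ENSMUSG00000070645.5) lies on chromosome 1 from 133350510 to 133360325, plus strand, with no other annotated gene over it. It had 293, 648 and 1031 expected counts (lowest, median and highest) with vehicle and 630, 791 and 1275 with SK-124. Its CPM was 14.5, 31.4 and 48.9 with vehicle and 35.3, 42.9 and 63.1 with SK-124. The groups overlapped, since 4 SK-124-treated mice lay below the highest vehicle-treated mouse, although all 6 lay above the vehicle median. The means were 32.1 ± 11.6 and 47.0 ± 10.5 CPM (SD, n = 6 each).

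The log2 fold change of *Ren1* was 0.55 (standard error 0.21, 95% interval 0.09 to 1.01, FDR = 0.0621, edgeR's quasi-likelihood test), the largest point estimate among the members, and it did not pass the threshold. The exact permutation test on log2(CPM + 0.5) gave p = 0.0368, two-sided. Its biological coefficient of variation between mice was 0.249, against a common value of 0.101 over all genes. The high values with SK-124 were those of mice 4 (63.1 CPM) and 5 (56.2 CPM), while mice 1 to 3 lay between 35.3 and 41.8 CPM. With mice 1 to 3 alone against all vehicle-treated mice the difference was 0.30 on the log2 scale (FDR = 0.476), and with mice 4 to 6 alone it was 0.77 (FDR = 0.0506), both from edgeR. Single mice moved the call. Its FDR was 0.0149, at a log2 fold change of 0.71, without vehicle-treated mouse 6, the highest of its group, and 0.0476, at 0.62, without SK-124-treated mouse 3, the lowest of its group, both from edgeR. Over 23 alternative settings *Ren1* stayed higher with SK-124, by 0.30 to 0.77 on the log2 scale, and the FDR (edgeR, DESeq2 or limma) was under 0.05 in 4 of them, from 0.0147 to 0.476 over all.

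Renin is also made in mouse adrenal gland, so adrenal markers were read beside it. Of 12 adrenal markers 11 did not pass the filter, *Cyp11b2*, *Cyp21a1*, *Th*, *Pnmt* and *Chga* were at 0 in every mouse, and the summed level was 0.130 to 0.620 TPM with vehicle and 0.260 to 0.460 TPM with SK-124. *Mc2r*, with at most 8 counts in a mouse, had means of 0.048 CPM with vehicle and 0.209 CPM with SK-124. *Cyp11a1*, *Nr5a1* and *Dbh* had counts only with SK-124 and *Cyp11b1* only with vehicle, at most 2 in a mouse. Juxtaglomerular cells are modified smooth muscle cells. Of 12 markers of vascular smooth muscle and pericytes 4 were higher and 4 lower with SK-124 at an FDR under 0.05 (edgeR). Over all genes tested 10.8% were higher and 13.5% lower. The summed levels of these markers were 64.8 to 84.4 TPM with vehicle and 48.6 to 74.3 TPM with SK-124. Their part in the *Ren1* values was not tested.

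*Atp6ap2* encodes the (pro)renin receptor, which is also an accessory subunit of the vacuolar proton pump. The gene (ENSMUSG00000031007.2) lies on chromosome X from 12587801 to 12617049, plus strand, with no other annotated gene over it. Its CPM was 34.6, 41.5 and 42.8 (lowest, median and highest) with vehicle and 44.0, 48.0 and 49.7 with SK-124. All 6 SK-124-treated mice lay above all 6 vehicle-treated mice on this scale. The means were 40.3 ± 3.15 and 47.7 ± 1.97 CPM (SD, n = 6 each). The log2 fold change was 0.24 (standard error 0.06, 95% interval 0.11 to 0.37, FDR = 0.00537, edgeR's quasi-likelihood test), and the exact permutation p was 0.00216, the smallest that 6 mice against 6 allow.

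The separation of *Atp6ap2* rested on the scaling between mice. Its expected counts were 677, 844 and 897 with vehicle and 759, 908 and 980 with SK-124, and only SK-124-treated mice 4 to 6 lay above all vehicle-treated mice. In TPM it was at 17.6 ± 2.21 with vehicle and 18.8 ± 2.39 with SK-124 (SD, n = 6 each), and again 3 of 6 mice lay above all vehicle-treated mice. With library totals the log2 fold change was 0.13 (FDR = 0.272, edgeR) and with limma on log2(TPM + 0.1) it was 0.10 (FDR = 0.578). The TMM factors were 0.889 to 0.915 in SK-124-treated mice 1 to 3, 1.01 to 1.04 in SK-124-treated mice 4 to 6 and 0.991 to 1.08 in vehicle-treated mice. In mice 4 to 6 alone against all vehicle-treated mice the value was 0.27 (FDR = 0.0267), and in mice 1 to 3 alone 0.23 (FDR = 0.0682), both from edgeR with TMM. Over 23 alternative settings the direction was kept, with log2 fold changes of 0.09 to 0.27, and the FDR was under 0.05 in 19, with values from 0.000556 to 0.578.

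**Figure D2:**
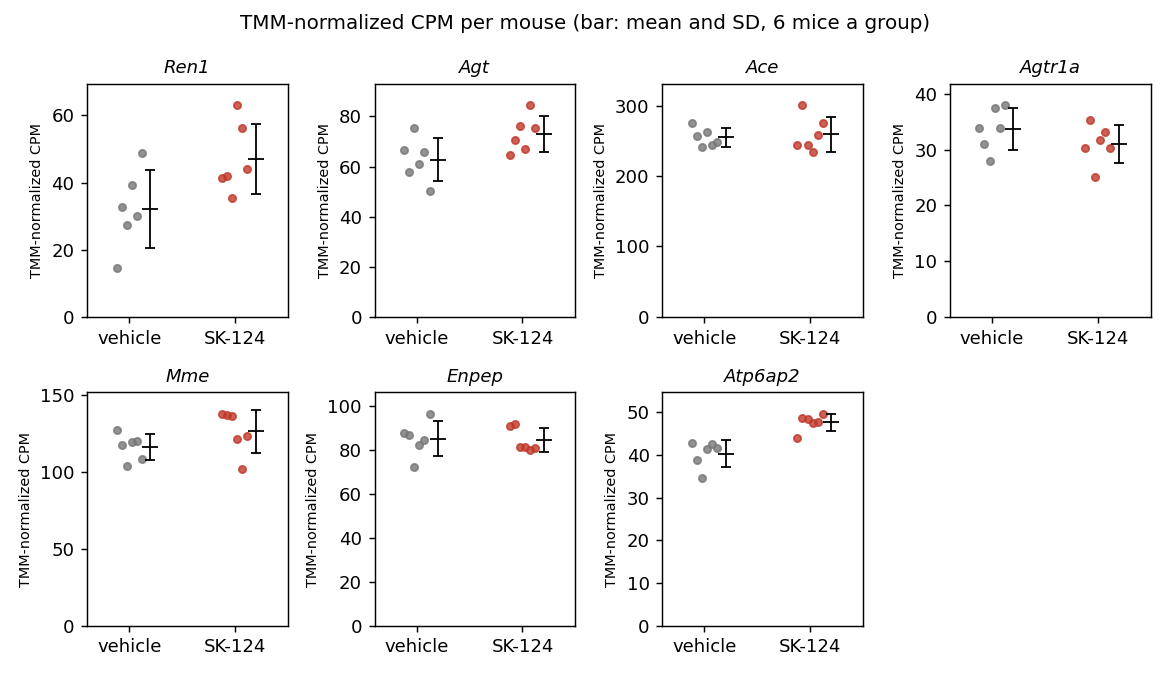
TMM-normalized CPM per mouse (y axis, from 0) of the 7 tested members with vehicle (grey) and SK-124 (red), with the mean and SD of 6 mice beside each group. The groups do not overlap for *Atp6ap2*, and overlap for *Ren1*, *Agt*, *Ace*, *Agtr1a*, *Mme* and *Enpep*.

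*Ace* encodes angiotensin-converting enzyme, which makes angiotensin II. The gene (ENSMUSG00000020681.14) lies on chromosome 11 from 105967945 to 105989964, plus strand. The antisense gene *Gm11651* overlaps it and had 0 counts in every mouse. The CPM of *Ace* was 241, 253 and 275 (lowest, median and highest) with vehicle and 234, 251 and 301 with SK-124. The SK-124-treated mice were spread over and beyond the vehicle range, with 1 above and 1 below it. Its log2 fold change was 0.02 (95% interval -0.12 to 0.16, FDR = 0.823, edgeR's quasi-likelihood test), and its sign was negative with library totals (-0.09, FDR = 0.380, edgeR) and in TPM (-0.13, FDR = 0.333, limma).

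The type 1 angiotensin II receptor is carried by a pair of mouse genes. *Agtr1a* (ENSMUSG00000049115.15) lies on chromosome 13 from 30336441 to 30382867, plus strand, and the sense intronic gene *Gm48161* inside it had 2 to 14 counts. *Agtr1b* (ENSMUSG00000054988.9) lies on chromosome 3 from 20314473 to 20367177, minus strand. RSEM gave a posterior SD of 0 for the count of either gene in every mouse, so it shared out no reads between the 2 receptor genes. *Agtr1a* had 546, 701 and 802 expected counts (lowest, median and highest) with vehicle and 448, 600 and 661 with SK-124. *Agtr1b* had 4 counts in all over the 6 vehicle-treated mice and 1 over the 6 SK-124-treated mice, and was at 0 in 8 of the 12 mice. No mouse exceeded 2 counts, under a floor of 3 counts, which corresponds to 0.0668 to 0.0986 TPM depending on the mouse. Against that floor *Agtr1a* was at least 126-fold higher in TPM in every mouse. No treatment difference in *Agtr1b* was detectable at this depth, and floors cover counting error only.

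*Agtr1a* was at 27.9, 33.9 and 38.0 CPM (lowest, median and highest) with vehicle and 25.1, 31.0 and 35.2 CPM with SK-124. The groups overlapped, with 5 of 6 SK-124-treated mice below the vehicle median and 1 below every vehicle-treated mouse. This was a log2 fold change of -0.12 (standard error 0.08, 95% interval -0.31 to 0.07, FDR = 0.329, edgeR's quasi-likelihood test; exact permutation p = 0.238). The sign was negative in all 23 alternative settings, from -0.30 to -0.07, with an FDR of 0.0935 to 0.612 (edgeR, DESeq2 or limma). Among the 8 members *Agtr1a* took 7.52% to 9.37% of the summed TPM with vehicle and 6.07% to 7.76% with SK-124, ranges that overlapped.

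*Mme* encodes neprilysin, an endopeptidase that turns angiotensin I into angiotensin-(1-7) and degrades other peptides. The gene (ENSMUSG00000027820.12) lies on chromosome 3 from 63241537 to 63386030, plus strand. Its CPM was 104, 119 and 128 (lowest, median and highest) with vehicle and 102, 130 and 138 with SK-124. On this scale SK-124-treated mice 1 to 3 lay above every vehicle-treated mouse, at 137 to 138 CPM, and mouse 5 lay below every one. In TPM all SK-124-treated mice lay inside the vehicle range, and in expected counts none lay above it. The log2 fold change was 0.12 (95% interval -0.04 to 0.28, FDR = 0.267, edgeR's quasi-likelihood test). With mice 1 to 3 alone it was 0.24 (FDR = 0.0314) and with mice 4 to 6 alone -0.00 (FDR = 0.994), both from edgeR with TMM. With library totals it was -0.00 (FDR = 0.990, edgeR) and in TPM -0.03 (FDR = 0.845, limma).

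*Enpep* encodes aminopeptidase A, which converts angiotensin II to angiotensin III. The gene (ENSMUSG00000028024.14) lies on chromosome 3 from 129269175 to 129332720, minus strand, and the processed pseudogene *Gm42628* overlapping it on the opposite strand had 0 counts. Its CPM was 72.4, 85.8 and 96.5 (lowest, median and highest) with vehicle and 80.0, 81.4 and 91.9 with SK-124. All SK-124-treated mice lay inside the vehicle range. The log2 fold change was -0.01 (95% interval -0.16 to 0.13, FDR = 0.924, edgeR's quasi-likelihood test).

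**Figure D3:**
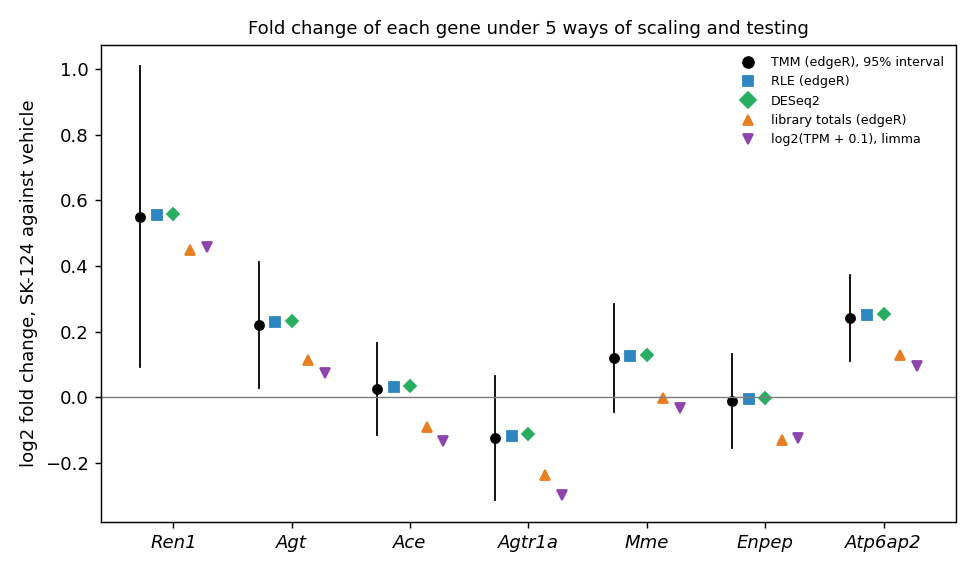
Log2 fold change of SK-124 against vehicle (y axis) for the 7 tested members under 5 ways of scaling and testing, with the 95% interval for the TMM value. Values with library totals and TPM lie below those with TMM, RLE and DESeq2 for every member, and those of *Ace* and *Mme* are then negative.

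Of the ratios within a mouse, 2 were compared. Neither differed beyond the spread between mice. The log2 ratio of *Enpep* to *Mme* was -0.04 ± 0.16 with vehicle and -0.13 ± 0.11 with SK-124 (SD, n = 6 each; exact permutation p = 0.353, adjusted 0.541). That of *Agtr1a* to *Agtr1b* was 7.07 ± 0.30 and 6.97 ± 0.29 (SD, n = 6 each; exact permutation p = 0.541, adjusted 0.541) and was set largely by *Agtr1a* over the pseudocount of 0.1 TPM, since *Agtr1b* was near 0, so that it moves with the scaling between mice.

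How the members varied together among mice of 1 treatment was read from 42 pairs, with 6 mice each. None had an adjusted exact permutation p under 0.05 (lowest 0.573 for Pearson's r and 0.719 for Spearman's rho), and 2 had an unadjusted p under 0.05 for Pearson's r, both with vehicle. These were *Agtr1a* with *Atp6ap2* and *Agt* with *Enpep*, whose r of -0.87 became 0.13 without the 2 mice farthest from the *Agt* median. Over the 12 mice, after subtracting each group's mean, the genes most like *Ren1* among 13008 were *Lsg1* (r = 0.882), *Nle1* (0.878) and *Maob* (0.837). Those most like *Atp6ap2* were *Gdpgp1* (0.931), *Cep85l* (0.914) and *Fam214a* (0.914). These r values are descriptions of 12 mice, taken as the highest of many genes.

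Beyond the members, 79 other genes of the pathway were listed in 5 groups, and 68 were tested. With edgeR 11 were higher and 17 lower with SK-124 at FDR under 0.05, against 10.8% higher and 13.5% lower over all genes tested. With library totals 5 were higher and 21 lower, against 5.49% and 21.6% over all genes. Of the other angiotensin peptidases and receptors, 1 of 11 tested was higher (*Anpep*, aminopeptidase N) and 1 lower (*Rnpep*, aminopeptidase B), with a median log2 fold change of 0.01. *Mas1*, the receptor for angiotensin-(1-7), had a log2 fold change of -0.46 (FDR = 0.105, edgeR) and *Agtrap*, a protein that binds the type 1 receptor, one of -0.00 (FDR = 0.969, edgeR). *Agtr2*, the type 2 receptor, did not pass the filter.

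Of the renin release and juxtaglomerular genes, 3 of 21 tested were higher (*Akr1b7*, *Pde3a* and *Prkar1a*) and 6 lower with SK-124, with a median of 0.04. Over all genes tested 10.8% were higher and 13.5% lower. *Akr1b7*, an aldo-keto reductase found with renin in juxtaglomerular cells, was at 1.02 ± 0.267 CPM with vehicle and 1.91 ± 0.654 CPM with SK-124 (SD, n = 6 each). The difference was 0.91 on the log2 scale (FDR = 0.00982, edgeR). In SK-124-treated mice 1 to 3 alone it was 0.49 (FDR = 0.285) and in mice 4 to 6 alone 1.22 (FDR = 0.00147), both from edgeR. With limma it was 0.65 on log2(TPM + 0.1) (FDR = 0.0764) and 0.39 on log2(TPM + 1) (FDR = 0.0668), neither called. *Pde3a*, a phosphodiesterase that breaks down cAMP, was higher by 0.54 on the log2 scale (FDR = 0.0210, edgeR). *Ptgir*, the prostacyclin receptor, was at 1.05 ± 0.289 CPM with vehicle and 0.322 ± 0.0494 CPM with SK-124 (SD, n = 6 each), without overlap. Its log2 fold change was -1.70 (FDR = 5.67e-05, edgeR). It passed the filter on low counts only through the vehicle-treated mice (0.644 to 1.37 CPM), since SK-124-treated mice lay at 0.253 to 0.392 CPM. The values of *Ptgir* are therefore given as a description, and it was not tested when every mouse had to have at least 10 counts. The connexins *Gja4* and *Gja5* fell by 0.77 and 0.70, the beta-1 adrenergic receptor gene *Adrb1* by 0.61 and the adenylyl cyclase *Adcy5* by 0.56 on the log2 scale (FDR from 0.00845 to 0.0332, edgeR). These are genes of few counts, between 0.840 and 4.22 CPM in the mice, and none of the 4 was called with SK-124-treated mice 4 to 6 alone (FDR from 0.0507 to 0.157, edgeR). With mice 1 to 3 alone *Adrb1* (FDR = 0.0539) and *Adcy5* (FDR = 0.194) were not called by edgeR, and limma called *Gja5* on neither TPM scale (FDR = 0.209 and 0.241). The *Adcy5* call was lost in 7 of the 12 fits that left out 1 mouse, those without vehicle-treated mouse 1, 4, 5 or 6 or SK-124-treated mouse 3, 5 or 6 (edgeR FDR from 0.0196 to 0.0811 over the 12). Endothelial markers, among cells that also carry *Gja4* and *Gja5*, were lower in 3 and higher in 1 of 10, with summed levels of 147 to 197 TPM with vehicle and 102 to 178 TPM with SK-124. Their part in these values was not tested.

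Of the macula densa genes, 1 of 7 tested was higher, *Ramp3* (a receptor activity-modifying protein, log2 fold change 0.85, FDR = 7.53e-07, edgeR), and 1 lower, *Casr* (the calcium-sensing receptor, -0.70, FDR = 0.00161, edgeR). *Casr* is carried by the thick ascending limb, and of 6 markers of that segment and the macula densa 2 were higher (*Cldn16* and *Ptger3*) and 0 lower, with a median log2 fold change of 0.18 and summed levels of 795 to 1346 TPM with vehicle and 997 to 1292 TPM with SK-124. Their part in the *Casr* values was not tested. *Ptgs2* and *Pappa2* did not pass the filter. Over all genes tested 10.8% were higher and 13.5% lower. Of the kallikrein-kinin genes, 2 of 6 tested were higher and 0 lower, against the same shares over all genes. The higher genes were *Kng2* and *Bdkrb2*. *Bdkrb2*, the bradykinin B2 receptor, was at 0.721 ± 0.0800 CPM with vehicle and 1.67 ± 0.717 CPM with SK-124 (SD, n = 6 each; log2 fold change 1.21, FDR = 0.00189, edgeR).

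Of the genes of type 1 receptor signalling, all 23 listed were tested, 4 were higher (*Rgs2*, *Egfr*, *Grk5* and *Jak2*) and 9 lower with SK-124, against 10.8% and 13.5% of all genes tested, and the median was -0.09. *Rgs2*, which ends signals through Gq, rose from 8.34 ± 1.77 to 23.9 ± 8.56 CPM (SD, n = 6 each; log2 fold change 1.52, FDR = 3.82e-05, edgeR). *Cybb*, a catalytic subunit of NADPH oxidase that is carried largely by phagocytes, fell by 1.11 on the log2 scale (FDR = 2.83e-05, edgeR). Among 9 tested immune markers 2 were lower (*Cd68* and *Cd79a*) and 0 higher. The list summed to 113 to 178 TPM with vehicle and 91.8 to 153 TPM with SK-124. *Cd79a* had at most 33 counts in a mouse. Not called were *C1qa* (log2 fold change 0.09), *C1qb* (0.16), *Csf1r* (0.18), *Lyz2* (0.06), *Ptprc* (-0.29), *Cd74* (-0.15) and *Adgre1* (-0.62). The part of immune cells in the *Cybb* values was not tested. *Plcb3*, a phospholipase C, and *Arap1*, which aids delivery of the type 1 receptor to the cell surface, each fell by 0.55 (FDR = 3.16e-05 and 6.59e-06, edgeR), with no overlap between the groups for *Rgs2*, *Cybb*, *Plcb3* or *Arap1*.

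**Figure D4:**
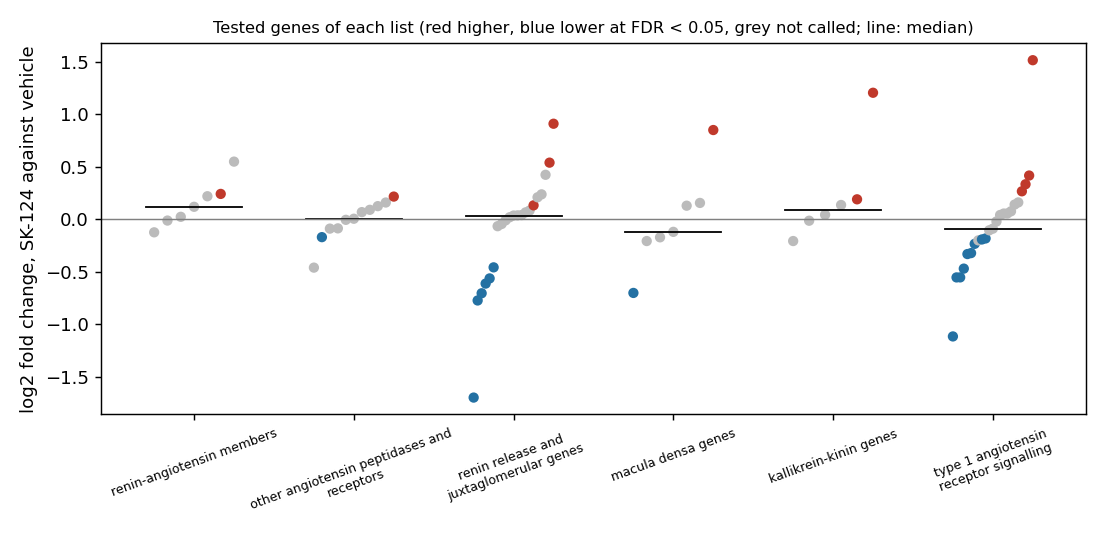
Log2 fold change of SK-124 against vehicle (y axis) for each tested gene of the members and of the 5 pathway lists (x axis), with genes called higher in red, called lower in blue, not called in grey, and the list's median as a line. The members have 1 called gene and a median of 0.12, and the type 1 receptor signalling list has 4 higher and 9 lower.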

How the data were processed

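Whole-kidney libraries of 12 mice, sequenced on a BGISEQ instrument, were used. The authors deposited 1 RSEM gene table per mouse with expected counts (not normalized), TPM and FPKM, scaled to effective length and library total. The deposited posterior columns, a score for the uncertainty of each count and of TPM, were used for the SD of members' counts, and FPKM was read but not tested. The submitters' processing notes name FastQC, STAR 2.7.2b, RSEM 1.3.0, DESeq2 and mm10. The use of strand and the annotation release are not given in the sources used here. Identifiers were matched to GENCODE M21 (GRCm38), 54349 of 55401 with their version and 55141 with any version.

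Expected counts were rounded, filtered with filterByExpr, scaled with TMM and tested with edgeR 4.0.16 (quasi-likelihood, R 4.3.3), with Benjamini-Hochberg adjustment over 14159 genes (FDR). The 95% intervals of fold changes used the standard error and a t quantile with 10 degrees of freedom. Single genes, ratios and orders were tested with two-sided exact permutation tests (scipy 1.17.1), on log2(CPM + 0.5) or log2(TPM + 0.1). P-values measure the spread between mice, 1 library each. Alternatives were DESeq2 1.42.0, RLE, library totals, limma 3.58.1 on log2(TPM + 0.1) and log2(TPM + 1), no filter, at least 10 counts in every mouse, robust dispersion, a replicate block, each mouse left out, and SK-124-treated mice 1 to 3 or 4 to 6 alone. The labels do not divide the SK-124-treated mice in this last way. The division matches the shares of the top 10 genes and the TMM factors seen in these data, so it does not stand as one set beforehand. The scripts were tested on simulated counts. Chi-square per degree of freedom was at least 4.41 in 30 pairs of mice within a group, so none looked like 1 library deposited as 2 samples.

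The members and lists were chosen with earlier results of these data known. All 8 members are named. From the pathway lists, the text names called genes (FDR under 0.05) whose log2 fold change was at least 0.5 in size, up to 6 a list, with *Agtr2*, *Mas1* and *Agtrap* always, and for *Ren1* and called members the 3 most similar genes. Other genes named were chosen after their values were seen. Of the genes first listed, 1 was left out of all lists and counts and is not reported here.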

Additional observations from a re-analysis of the deposited data

Results flagged for a closer look

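In 6 of 48 values examined, 1 mouse stood apart from its group by a gap test that chance passes in about 2. SK-124-treated mouse 1 had 44.0 CPM of *Atp6ap2*, below the 47.6 to 49.7 CPM of the other SK-124-treated mice, and without it the log2 fold change was 0.26 (FDR = 0.00439, edgeR). In vehicle-treated mouse 6 the log2 ratio of *Enpep* to *Mme* was 0.27, above the -0.19 to -0.04 of the others. Vehicle-treated mouse 3 had 8.12 CPM of *Ramp3* (others 6.31 to 6.92) and 25.7 CPM of *Casr* (others 48.3 to 54.3), the latter inside the SK-124 range of 22.7 to 35.2 CPM. SK-124-treated mouse 5 had 1.75 CPM of *Gja4* (others 0.840 to 1.09) and 103 CPM of *Agtrap* (others 81.5 to 88.3). Vehicle-treated mouse 3 also had the lowest vehicle CPM of *Ace*, *Agtr1a*, *Mme*, *Enpep* and *Atp6ap2*, and the highest of *Agt*. Its chi-square per degree of freedom against each other vehicle-treated mouse was 19.2 to 24.6, against 4.41 to 8.49 among those mice. Among SK-124-treated mice this value was 5.63 to 29.9. Without vehicle-treated mouse 3, 3942 genes were called, against 3453 with all mice. No explanation was tested for these values.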

How the results depend on the processing

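Depth and the scaling between mice limit these results, since the shift of -0.11 between scalings was large beside the changes of most members, and *Agtr1b* had too few counts to test. With library totals 20.3% of called genes were higher, against 44.5% with TMM (19.0% with limma on TPM).

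Of the members, 1 was called with TMM, 0 with library totals, 0 with limma on either TPM scale, 2 with no filter and 3 with the replicate block. Over all 14159 genes, 3453 were called with TMM, 3835 with library totals, 2616 and 2630 with limma and 3466 with the replicate block. With no filter 3341 of 25286 were called. Replicate numbers pair mice in the labels only by number, and deviations of same-numbered mice correlated from -0.155 to 0.236. With the number as a block, *Ren1* was at 0.60 (FDR = 0.0147) and *Agt* at 0.23 (FDR = 0.0484), both edgeR, and *Adcy5* was no longer called (FDR = 0.0573). With no filter *Ren1* had an FDR of 0.0323 (edgeR). Over all genes, calls went from 3453 to 2298 with SK-124-treated mice 1 to 3 alone. Among listed pathway genes they went from 28 to 16 with mice 1 to 3 and to 15 with mice 4 to 6, fits with fewer mice, and limma gave 19 on either TPM scale.

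In TPM the exact permutation tests gave log2 differences of 0.46 for *Ren1* (p = 0.169), 0.073 for *Agt* (p = 0.569), 0.095 for *Atp6ap2* (p = 0.400), -0.13 for *Ace* and -0.033 for *Mme*. Leaving out each mouse gave 0.40 to 0.74 for *Ren1* (p over 0.05 in 8 of 12), 0.16 to 0.28 for *Agt* (9 of 12), -0.024 to 0.049 for *Ace*, 0.084 to 0.18 for *Mme*, -0.053 to 0.029 for *Enpep*, -0.17 to -0.063 for *Agtr1a* and 0.20 to 0.27 for *Atp6ap2*, and 1 to 2 called members, 2960 to 3942 called genes and 21 to 28 called pathway genes.

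Signs turned for *Ace* with library totals (-0.091) and limma (-0.13 and -0.13), for *Mme* with library totals (-0.0018), limma (-0.033 and -0.032) and mice 4 to 6 (-0.0014), for *Enpep* with mice 1 to 3 (0.053), and for *Agtrap* with DESeq2 (0.0061), RLE (0.0030) and mice 4 to 6 (0.041). With each mouse left out, edgeR gave -0.023 to 0.053 for *Ace*, -0.054 to 0.028 for *Enpep* and -0.052 to 0.019 for *Agtrap*. Correlations among members had no called pair to recompute. The causes of these changes were not tested.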
